A study of Mus musculus with 4 samples.

Results

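The BCL2 family decides whether the outer membrane of the mitochondrion holds or is permeabilised, and 10 of its genes were followed here through RNA-seq of mouse myeloid cells that carry or lack a myeloid deletion of PD-1. The genes were taken by their symbol from the 24706 genes listed in each of the 4 expression files, and all 10 were found. The 6 prosurvival genes are Mcl1, Bcl2, Bcl2l1 (which encodes BCL-XL) and the A1 genes Bcl2a1a, Bcl2a1b and Bcl2a1d. The 4 proapoptotic genes are Bcl2l11 (which encodes BIM), Bax, Bak1 and Bid.

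Prosurvival members bind and restrain the other members of the family, and BH3-only proteins such as BIM and the activated form of BID bind them in turn or act on the effectors BAX and BAK directly. The effectors, once activated, form pores in the outer mitochondrial membrane, cytochrome c is released and caspases are activated. Neutrophils and their precursors depend on MCL1, a protein with a short lifetime, and A1 is an early response gene of activated myeloid cells.

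The study asked how PD-1, an inhibitory receptor encoded by Pdcd1, acts in myeloid cells during development. The control group (wt, 2 libraries) came from PD-1f/f mice, whose Pdcd1 gene is floxed and which the methods also call wild-type. The conditional knockout group (cko, 2 libraries) came from PD-1f/f mice that also carry LysM-Cre, in which Cre recombinase is expressed from the lysozyme 2 gene, Lyz2, in myeloid cells. Both groups therefore carry the floxed gene and differ in Cre. The labels name myeloid cells and the design text adds that they came from fetal liver. The text of the results describes CD11b+ cells sorted from the liver at postnatal day 3, whereas the methods describe total RNA of livers at postnatal day 2 and name no sort, and these accounts could not be reconciled. The labels do not say whether replicates are separate animals, litters or pools, so that the p-values measure the spread between these libraries, which may be technical. In such bulk RNA, fewer cells of a type and less RNA per cell cannot be told apart.

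Levels are given as FPKM (fragments scaled by the length of the gene and the counted reads of the library), which can be compared between genes. The libraries held 17691505 to 22212407 counted reads, recovered from the steps between low FPKM values, and 1 read in a gene of 1 kb was worth 0.0450 to 0.0565 FPKM. Pdcd1, the targeted gene, was at 28.5 and 34.7 FPKM in wt replicates 1 and 2 and at 17.1 and 21.4 FPKM in cko replicates 1 and 2 (log2 fold change -0.69, SE 0.19, limma adjusted p = 0.218). It was under an unadjusted p of 0.05 with all libraries but not without wt replicate 2 (-0.55) or without cko replicate 1 (-0.54). Lyz2 had 31306 and 32147 FPKM in the wt and 10422 and 8127 FPKM in the cko libraries. As a check of the labelled cell type, the 12 late neutrophil markers summed to 138898 to 162808 FPKM in the wt and 93156 to 112378 FPKM in the cko libraries, beside 492 to 649 FPKM for 7 monocyte markers, 266 to 452 FPKM for 10 macrophage markers and 3.93 to 9.37 FPKM for the 5 T cell markers in the files. Other cells were present: erythroid markers (9 of 10 in the files) summed to 2334 to 3714 FPKM in the wt and 1416 to 1515 FPKM in the cko libraries, and 7 hepatocyte markers to 55.1 to 86.6 and 33.1 to 41.4 FPKM. The 4 promyelocyte markers summed to 1214 to 1292 FPKM in the wt and 1611 to 1966 FPKM in the cko libraries. NK cell markers (4 of 5 in the files) summed to 28.9 to 46.9 FPKM in the wt and 11.2 to 16.9 FPKM in the cko libraries, and the 6 B cell markers to 52.6 to 66.9 and 33.6 to 43.2 FPKM. The part of these cells in the differences below was not tested. No marker in the files was at 0 in all 4 libraries.

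The sequences of the A1 genes are shown first because they limit how well reads can be assigned to each copy. The 3 genes lie on chromosome 9 and have coding sequences of 519 bases, which were 97.9% identical between Bcl2a1a and Bcl2a1b (11 differences), 98.7% between Bcl2a1a and Bcl2a1d (7 differences) and 98.8% between Bcl2a1b and Bcl2a1d (6 differences). Of the 12 coding positions at which the 3 copies are not all the same, 7 lie in the first 120 coding bases, which are printed here 5′ to 3′ from the GENCODE M21 transcripts (GRCm38) with those positions in capitals. They were read at chr9:88957051-88957170 (plus strand), chr9:89199360-89199479 (plus strand) and chr9:88731600-88731719 (minus strand), in the order of the lines.
Bcl2a1a: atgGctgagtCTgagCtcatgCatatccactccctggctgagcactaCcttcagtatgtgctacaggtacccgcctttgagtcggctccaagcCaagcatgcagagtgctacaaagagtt
Bcl2a1b: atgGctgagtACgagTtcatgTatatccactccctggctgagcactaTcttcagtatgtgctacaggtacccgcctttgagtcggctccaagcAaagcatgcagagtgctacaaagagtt
Bcl2a1d: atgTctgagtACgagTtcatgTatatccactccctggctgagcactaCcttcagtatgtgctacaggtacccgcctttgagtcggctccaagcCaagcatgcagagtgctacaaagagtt
Over whole transcripts, 67.7% of the 50-base windows of Bcl2a1a, 57.6% of those of Bcl2a1b and 79.5% of those of Bcl2a1d occur in another copy, and 43.5%, 31.1% and 54.7% of the 100-base windows do. The read length and the treatment of reads with several matches are not given in the sources used here, and the values of single A1 genes are uncertain for that reason.

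The sequence just upstream of the A1 genes was also alike. The stretches below come from RefSeq promoter windows (GRCm38.p6) and run from 20 bases before a match to the AP-1 letters TGANTCA to 20 bases after a match to the PU.1 letters GAGGAAGT, both in capitals. They lie at chr9:88956780-88956843 (plus strand), chr9:89199089-89199152 (plus strand) and chr9:88731927-88731984 (minus strand).
Bcl2a1a: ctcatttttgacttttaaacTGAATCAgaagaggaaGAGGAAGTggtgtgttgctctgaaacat
Bcl2a1b: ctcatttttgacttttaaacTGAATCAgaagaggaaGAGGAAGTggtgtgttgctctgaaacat
Bcl2a1d: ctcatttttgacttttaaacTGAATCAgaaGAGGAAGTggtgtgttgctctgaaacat
The first 2 stretches were 64 bases long and the stretch of Bcl2a1d 58 bases. AP-1 letters stood in 6.75% and PU.1 letters in 2.44% of 32851 mouse windows of 250 bases upstream of a start, on either strand. Among the 10 members, AP-1 letters occurred in the 3 A1 genes alone, and PU.1 letters in these and in Bak1.

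Mcl1 and Bcl2l11, the members with the lowest p on each side of the family, are shown with a whole promoter window of 250 bases. Capitals mark the ETS core letters, CCGGAA on the gene strand or, on the opposite strand, TTCCGG, which stood in 12% of the windows, and in Bcl2l11 also the FOXO letters GTAAACA, which stood in 3.17%. The windows are chr3:95658471-95658720 and chr2:128125788-128126037, both on the plus strand of GRCm38.p6. That of Mcl1 ends short of the gene start used below, at chr3:95658788, whereas that of Bcl2l11 ends just before its gene start.
Mcl1: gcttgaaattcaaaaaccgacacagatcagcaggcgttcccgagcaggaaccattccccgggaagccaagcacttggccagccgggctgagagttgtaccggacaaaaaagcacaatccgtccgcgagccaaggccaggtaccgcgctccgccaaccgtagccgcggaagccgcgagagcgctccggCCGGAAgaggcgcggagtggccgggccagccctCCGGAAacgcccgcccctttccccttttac
Bcl2l11: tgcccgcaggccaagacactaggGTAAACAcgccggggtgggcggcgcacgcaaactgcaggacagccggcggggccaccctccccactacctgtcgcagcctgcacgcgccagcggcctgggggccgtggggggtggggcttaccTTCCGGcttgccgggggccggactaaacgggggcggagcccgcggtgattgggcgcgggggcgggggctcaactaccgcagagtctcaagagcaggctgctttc
The ETS core was found in the windows of Mcl1 and Bid and in the printed window of Bcl2l11, which also held the FOXO letters. A further window of Bcl2l11, at chr2:128127325-128127574, held neither the ETS core nor the FOXO letters. A match to the NF-κB motif (3.9% of windows) was in a window of Bcl2l1. The CRE letters TGACGTCA (1.55% of windows) were in none of the 13 windows of the members. These letters were chosen with the values of the members known, and a match describes the sequence and is not evidence of binding.

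Differences are given as log2 fold changes of cko against wt on the log2(FPKM + 1) scale, which understates the change of low genes, from a limma fit over 10779 genes whose mean over the libraries reached 1 FPKM. Bcl2 was below this mean, so that 9 of 10 members were tested. At an unadjusted p under 0.05, Mcl1 and Bcl2l11 were higher and Bak1 was lower in the cko libraries, which is 3 of the 9 tested members (33.3%) beside 16.4% of all tested genes (11.4% higher and 4.95% lower). The members called changed when single libraries were left out, and Bcl2l11 and Bak1 lost the call in several of those fits, as given below. The number called over all tested genes changed as well. After Benjamini-Hochberg adjustment over all genes, limma called 0 members and 0 genes, the smallest adjusted p of any gene being 0.129, while voom on the recovered reads called 2 genes, neither a member, at an adjusted p under 0.05 and a log2 fold change of at least 1 in size. Only Mcl1 passed the study's looser threshold, a log2 fold change above 1 in size with an unadjusted p under 0.01, which 2.29% of all tested genes passed (1.88% higher and 0.408% lower). With 2 libraries against 2, an exact permutation test of a single value cannot give a two-sided p below 0.333, and none is given.

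**Figure D1:**
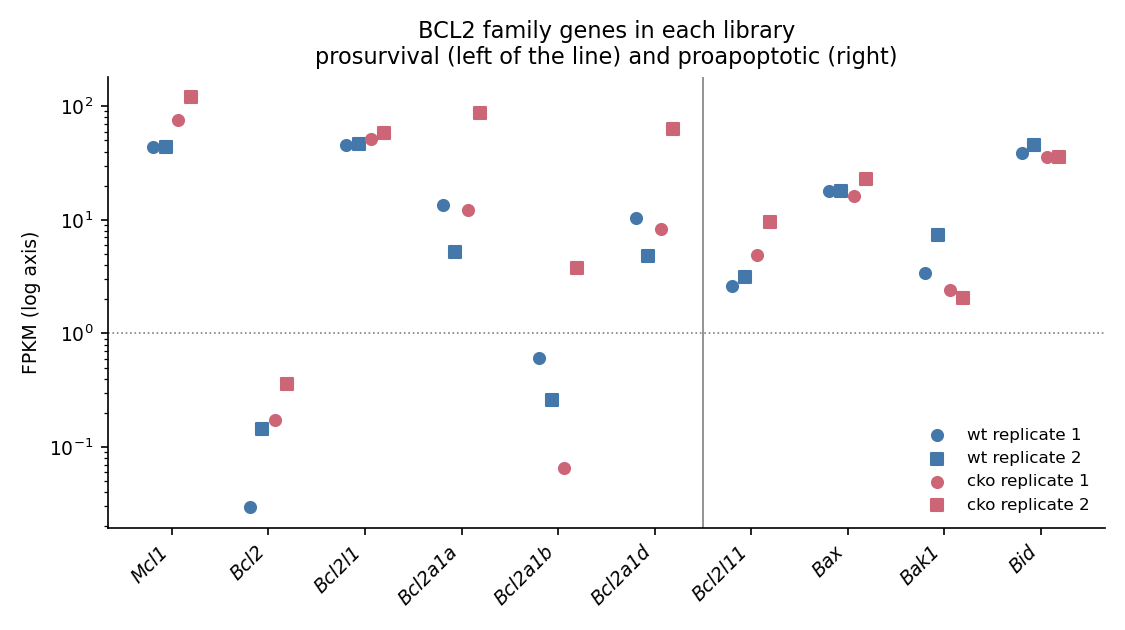
FPKM of each of the 10 members in the 4 libraries, on a log10 axis, with 1 point per library, blue for wt and red for cko, and a dotted line at the minimum mean of 1 FPKM. Mcl1, Bcl2l11, Bcl2l1 and Bcl2 had both cko libraries above both wt libraries, Bak1 and Bid had them below, and the A1 genes stood apart in cko replicate 2. Of all tested genes, 51.6% had groups that did not overlap, and the order of wt replicate 2 and cko replicate 1 in Bcl2 could not be resolved.

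Mcl1 (chr3:95658788-95663176, plus strand) encodes the prosurvival protein on which neutrophils rely. It was at 44.0 and 43.8 FPKM in wt replicates 1 and 2 and at 75.4 and 119.9 FPKM in cko replicates 1 and 2, from 2820 to 7250 reads. Both cko libraries were above both wt libraries, and the wt libraries were nearly equal while the cko libraries lay well apart. The cko mean of 97.6 FPKM ± 31.5 (SD, n = 2) was 2.22 times the wt mean of 43.9 FPKM ± 0.141 (SD, n = 2), with a log2 fold change of 1.10 (SE 0.24, 95% interval 0.50 to 1.69, limma adjusted p = 0.210). Taken singly, cko replicate 1 stood at 1.72 times and cko replicate 2 at 2.73 times the wt mean. Without cko replicate 2 the log2 fold change was 0.76, and the unadjusted p stayed under 0.05 whichever library was left out. The looser threshold was passed only without cko replicate 1 (1.43) among those fits, and not under median-of-ratios scaling (0.99). Its rank among the genes of a library was 1047 and 1069 in the wt and 611 and 404 in the cko libraries.

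Bcl2l1 (chr2:152780668-152831728, minus strand) encodes BCL-XL, a prosurvival protein known for its part in erythroid cells and platelets. Its levels were 46.1 and 46.2 FPKM in the wt and 51.3 and 57.7 FPKM in the cko libraries. The groups did not overlap, but the difference was small, with a log2 fold change of 0.23 (95% interval -0.12 to 0.59). It was 0.13 under median-of-ratios scaling and 0.15 without cko replicate 2. Erythroid and hepatocyte marker genes were also taken out and each library rescaled to one total, an alternative chosen after seeing the data. The log2 fold change was then 0.44 with an unadjusted limma p under 0.05, while the median of all tested genes moved from 0.09 to 0.26. The FPKM totals were 491983 and 457127 in the wt and 412778 and 403900 in the cko libraries with these markers. They were 488214 and 454706 in the wt and 411329 and 402344 in the cko libraries without them. The values of this fit thus differ from the main ones mainly through the rescaling. It is called without erythroid and hepatocyte marker genes below. The level of Mcl1 relative to Bcl2l1 within a library does not depend on scaling. It was 0.955 and 0.948 in the wt and 1.47 and 2.08 in the cko libraries, so that Mcl1 stood slightly below Bcl2l1 in both wt libraries and above it in both cko libraries.

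Bcl2 (chr1:106538178-106714274, minus strand), the founding prosurvival gene of the family, was very low. The libraries held 6 and 25 reads in the wt and 30 and 58 reads in the cko group, which is 0.0295, 0.145, 0.175 and 0.358 FPKM. Scaled to the counted reads of each library (RPM), the exact 95% intervals, which cover counting error only, ran from 0.0991 to 0.588 and from 0.860 to 1.96 in the wt libraries, and from 1.08 to 2.29 and from 2.49 to 4.24 in the cko libraries. The intervals of wt replicate 2 and cko replicate 1 overlapped, so that the order of those libraries could not be resolved at this depth.

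The A1 genes encode small prosurvival proteins that are close copies of each other. Bcl2a1a (chr9:88956900-88962419, plus strand) was at 13.4 and 5.25 FPKM in the wt and at 12.3 and 86.7 FPKM in the cko libraries. Bcl2a1d (chr9:88723285-88731914, minus strand) followed the same order of libraries, with 10.4 and 4.80 FPKM in the wt and 8.28 and 63.1 FPKM in the cko libraries. In both genes cko replicate 1 lay within the range of the wt libraries and cko replicate 2 lay far above it, at 9.29 times the wt mean for Bcl2a1a and 8.28 times for Bcl2a1d.

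Bcl2a1b (chr9:89199209-89207827, plus strand) had 11 and 4 reads in the wt and 1 and 54 reads in the cko libraries, or 0.606, 0.260, 0.0653 and 3.74 FPKM, and reached the minimum mean only through cko replicate 2. It took 2.42%, 2.45%, 0.309% and 2.38% of the reads of the 3 genes. Of its exon bases, 49.1% overlap a gene model on the same strand in GENCODE M21, Gm29094, which adds to the uncertainty of its level.

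The groups overlapped for all 3 A1 genes, and the log2 fold changes were 1.85 (95% interval -0.40 to 4.10) for Bcl2a1a, 1.58 (-0.65 to 3.82) for Bcl2a1d and 0.66 (-1.10 to 2.42) for Bcl2a1b. These values rest on cko replicate 2. Without it they were 0.49, 0.19 and -0.42, and without cko replicate 1 they were 3.21, 2.98 and 1.74. In those fits the lone cko library is taken to vary like the wt libraries. The value of 1.74 for Bcl2a1b comes from the library that alone brought this gene to the minimum mean. A sum over the 3 copies depends little on how counted reads were shared between them. Any reads left uncounted because they matched several copies or Gm29094 would be missing from it too. Summed in this way, the A1 genes had 455 and 163 reads in the wt and 324 and 2273 reads in the cko libraries, or 24.5, 10.3, 20.7 and 153 FPKM. The log2 fold change of the sum was 1.77 (SE 0.93, limma adjusted p = 0.393). Bcl2a1a stood at 1.29 and 1.09 times the level of Bcl2a1d in the wt and 1.49 and 1.37 times in the cko libraries. The summed macrophage markers, at 392 and 266 FPKM in the wt and 269 and 452 FPKM in the cko libraries, had the same order of libraries as Bcl2a1a, and the monocyte markers were highest in cko replicate 2 at 649 FPKM. Their part in the result was not tested.

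**Figure D2:**
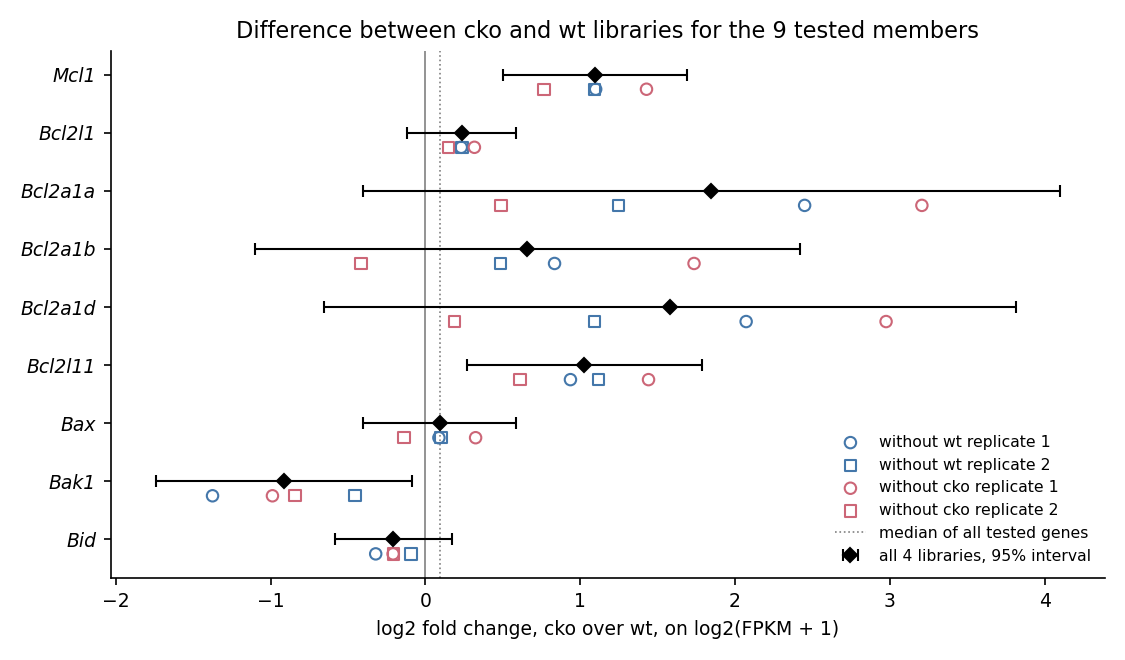
Log2 fold change of cko against wt on the log2(FPKM + 1) scale for the 9 tested members, with 95% limma intervals, a dotted line at the median of all tested genes, and open symbols for the value without each library. The intervals of Mcl1 and Bcl2l11 lay above 0 and that of Bak1 below 0, and the A1 genes had the widest spread.

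Among the proapoptotic genes, Bcl2l11 (chr2:128126038-128162547, plus strand) encodes BIM, a BH3-only protein that binds the prosurvival members. Its level was low, at 2.64 and 3.12 FPKM in the wt and 4.91 and 9.50 FPKM in the cko libraries, but rested on 470 to 1350 reads. Both cko libraries were above both wt libraries, and cko replicate 2 was again the highest. The cko mean was 2.51 times the wt mean, with a log2 fold change of 1.03 (SE 0.31, 95% interval 0.27 to 1.79, limma adjusted p = 0.235). The unadjusted p was no longer under 0.05 without wt replicate 1 (log2 fold change 0.94), without wt replicate 2 (1.12) or without cko replicate 2 (0.61). Mcl1 stood at 16.7 and 14.1 times the level of Bcl2l11 in the wt and at 15.3 and 12.6 times in the cko libraries, ranges that overlap.

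Bax (chr7:45461697-45466898, minus strand) encodes one of the pore-forming effectors. It was at 18.0 and 18.1 FPKM in the wt and at 16.3 and 22.8 FPKM in the cko libraries, which enclose the wt values. Its log2 fold change was 0.09 (95% interval -0.40 to 0.59), and its sign was lost under median-of-ratios scaling, where it was -0.0093, and without cko replicate 2, where it was -0.14.

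Bak1 (chr17:27019810-27029009, minus strand) encodes the other effector. It was at 3.42 and 7.37 FPKM in the wt and at 2.39 and 2.07 FPKM in the cko libraries, from 183, 334, 108 and 88 reads. Both cko libraries were below both wt libraries, and the wt libraries differed more from each other than the cko libraries did. The log2 fold change was -0.92 (SE 0.33, 95% interval -1.74 to -0.088, limma adjusted p = 0.275), with the cko mean at 0.413 times the wt mean. The unadjusted p was no longer under 0.05 without wt replicate 2 (log2 fold change -0.46), without cko replicate 1 (-0.99) or without cko replicate 2 (-0.84). The same held without a filter on low genes (-0.92) and with erythroid and hepatocyte marker genes taken out and the totals rescaled (-0.76). Of its exon bases, 25.5% overlap Ggnbp1 on the opposite strand, a gene at 0.130 to 0.307 FPKM, and whether reads were counted by strand is not given. The ratio of Bax to Bak1 within a library was 5.25 and 2.46 in the wt and 6.82 and 11.1 in the cko libraries.

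Bid (chr6:120891930-120916853, minus strand) encodes the BH3-only protein that caspase-8 cleaves to link death receptors to the mitochondrion. Its levels were 38.5 and 45.2 FPKM in the wt and 36.0 and 35.9 FPKM in the cko libraries. The cko libraries were nearly equal and lay below both wt libraries, and the log2 fold change was -0.21 (95% interval -0.58 to 0.17). This value was -0.32 without wt replicate 1, -0.093 without wt replicate 2 and -0.31 under median-of-ratios scaling. It was -0.00088 with erythroid and hepatocyte marker genes taken out and the totals rescaled. Bcl2l13 on the opposite strand overlaps 17.7% of its exon bases and was at 6.06 to 7.83 FPKM.

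In order of level, Bcl2l1, Mcl1 and Bid led in the wt libraries with means of 46.2, 43.9 and 41.8 FPKM, of which Mcl1 and Bid overlapped over the libraries. Bax followed at 18.1 FPKM, then Bcl2a1a, Bcl2a1d and Bak1 at 9.33, 7.62 and 5.40 FPKM with overlapping ranges, Bcl2l11 at 2.88 FPKM, and Bcl2a1b and Bcl2 at 0.433 and 0.0873 FPKM. In the cko libraries the order began with Mcl1 at 97.6 and Bcl2l1 at 54.5 FPKM, whereas Bcl2a1a at 49.5 and Bcl2a1d at 35.7 FPKM had ranges too wide to be placed among Bcl2l1, Bid (36.0 FPKM) and Bax (19.6 FPKM). Mcl1 exceeded Bcl2a1a and Bcl2a1d, each taken singly, within each cko library. The sum of the 3 A1 genes exceeded Mcl1 in cko replicate 2, at 153 against 119.9 FPKM. Bak1 at 2.23 FPKM lay below Bcl2l11 at 7.21 FPKM in both cko libraries, the reverse of their order in both wt libraries.

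Of the 9 tested members, 5 had groups that did not overlap (55.6%), close to the 51.6% of all tested genes (33.6% with cko above and 18% with cko below). The median log2 fold change was 1.10 over the 5 tested prosurvival members and -0.06 over the 4 proapoptotic members, beside 0.09 over all tested genes. Without cko replicate 2 the prosurvival median was 0.19. Bcl2 is not in these medians, 3 of the 5 prosurvival values belong to near-identical copies, and Bcl2a1b was tested only because of cko replicate 2.

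The balance of the 2 sides was read from sums of FPKM. The ratio of the sums within a library does not depend on scaling between libraries, whereas the sums themselves do. The 6 prosurvival genes summed to 114.6 and 100.5 FPKM in the wt and to 147.5 and 331.5 FPKM in the cko libraries. The 4 proapoptotic genes summed to 62.5 and 73.9 FPKM in the wt and to 59.7 and 70.4 FPKM in the cko libraries. The prosurvival sum thus lay higher in both cko libraries, while the proapoptotic sums of the groups overlapped.

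The ratio of the sums was 1.83 and 1.36 in the wt and 2.47 and 4.71 in the cko libraries. On the log2 scale the group means were 0.66 ± 0.30 (SD, n = 2) and 1.77 ± 0.66 (SD, n = 2), a difference of 1.11, which was 0.65 without cko replicate 2 and 1.58 without cko replicate 1. Without Mcl1 in the sum, the log2 ratio was 0.18 and -0.38 in the wt and 0.27 and 1.59 in the cko libraries, a difference of 1.03 that comes mostly from cko replicate 2. When each gene was weighted equally, as the mean of log2(FPKM + 1) over the prosurvival minus that over the proapoptotic members, the values were -0.20 and -0.93 in the wt and -0.21 and 0.96 in the cko libraries. On that measure the groups overlapped, with cko replicate 1 inside the wt range, and the difference of the means was 0.94. Because of the added 1, this measure does depend on scaling to some extent. On the log2 ratio of the sums, the cko libraries (1.31 and 2.24) differed from each other by nearly as much as the group means did. Without Mcl1, and with each gene weighted equally, they differed from each other by more than the group means did. A sum of RNA levels is no measure of the proteins or of their binding.

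**Figure D3:**
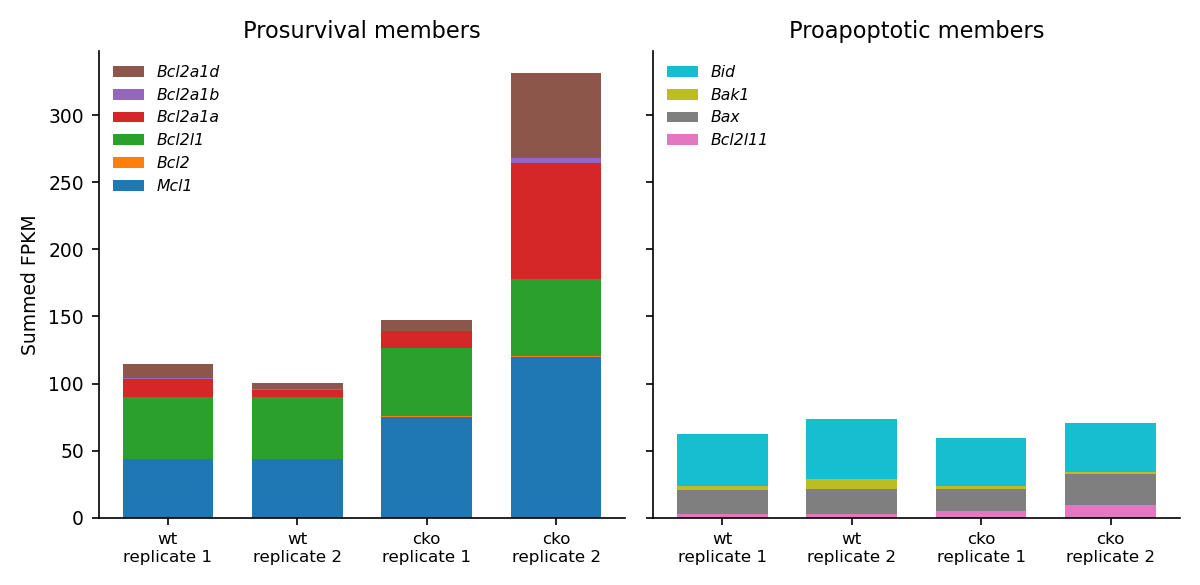
Summed FPKM of the prosurvival (left) and proapoptotic (right) members in each of the 4 libraries, as bars that start at 0 and are split by gene. The prosurvival bars of both cko libraries stood above those of both wt libraries, and the A1 genes reached 153 FPKM in cko replicate 2 against 10.3 to 24.5 FPKM in the other libraries, while the proapoptotic bars lay between 59.7 and 73.9 FPKM.

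The make-up of the prosurvival sum differed between the cko libraries. Mcl1 took 38.4% and 43.6% of it in the wt and 51.1% and 36.2% in the cko libraries. Bcl2l1 took 40.2% and 46.0% in the wt and 34.8% and 17.4% in the cko libraries. The A1 genes took 21.3% and 10.3% in the wt, 14.0% in cko replicate 1 and 46.3% in cko replicate 2, where they were the largest part.

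The rest of the BCL2 family and the steps before and after it were described by 8 lists, of which 64 genes are reported here, 60 were in the files and 47 were tested. At an unadjusted p under 0.05, 7 of these genes were higher and 0 lower. They are 14.9% of the tested list genes, beside 16.4% of all tested genes in either direction. Over all tested genes 11.4% were higher and 4.95% lower, shares that also stand beside the counts of single lists below. After adjustment by limma 0 list genes passed, and the median log2 fold change was 0.17 beside 0.09 over all tested genes. Leaving out single libraries changed the count of list genes called, as given further below. Without erythroid and hepatocyte marker genes it was 15, while 2535 of 10765 genes were called in that fit. None of the 9 tested genes of the remaining BCL2 and BNIP lists had a p under 0.05. Pmaip1, which encodes the BH3-only protein NOXA that binds MCL1 and A1, was at 14.1 and 10.7 FPKM in the wt and 14.6 and 49.2 FPKM in the cko libraries (log2 fold change 1.07, 95% interval -0.27 to 2.41), and as with the A1 genes cko replicate 2 stood apart. Bbc3, which encodes PUMA, was at 0.593 and 1.23 FPKM in the wt and 1.81 and 1.68 FPKM in the cko libraries (0.54, -0.15 to 1.23). Its wt mean was 0.910 FPKM, so that it was tested only because of the cko libraries. It is nevertheless part of the tested counts and the median above.

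Of the other tested family genes, Bad and Bmf, which encode BH3-only proteins, had log2 fold changes of -0.15 and -0.11. Bnip3l, which acts in the removal of mitochondria from maturing red cells, was at 132 and 139 FPKM in the wt and 114 and 103 FPKM in the cko libraries (-0.32, 95% interval -0.67 to 0.019), and Bnip3 had a log2 fold change of -0.41 (-0.83 to 0.018). The erythroid markers given above were lower in the cko libraries as well, and their part in these values was not tested. Bnip1, Bnip2 and Bcl2l13 had log2 fold changes of -0.10, -0.15 and 0.04. Of the other prosurvival genes, 2 of 3 were in the files and 0 reached the minimum mean. Bik, another BH3-only gene, was also below it and is named after its values were seen. It had 37 and 12 reads in the wt and 9 and 2 reads in the cko libraries, or 1.77, 0.676, 0.509 and 0.120 FPKM, and was not tested.

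Downstream of the mitochondrion, 1 of the 13 tested apoptosome and executioner genes reported here was higher. Casp6, an executioner caspase gene, was at 1.66 and 1.47 FPKM in the wt and 4.87 and 10.1 FPKM in the cko libraries, a log2 fold change of 1.66 (SE 0.33, limma adjusted p = 0.199), and its unadjusted p stayed under 0.05 whichever library was left out. Both cko libraries were above both wt libraries, and cko replicate 2 was the highest.

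Of 8 tested inhibitor of apoptosis genes, 2 were higher and 0 lower. Birc3, which encodes the ubiquitin ligase cIAP2 of NF-κB signalling, was at 20.8 and 18.4 FPKM in the wt and 32.0 and 71.9 FPKM in the cko libraries, a log2 fold change of 1.25 (SE 0.37), and its unadjusted p was not under 0.05 without wt replicate 1 (1.33) or wt replicate 2 (1.17). Birc6 was at 1.97 and 2.00 FPKM in the wt and 3.13 and 3.33 FPKM in the cko libraries (0.50, SE 0.19), and its unadjusted p was over 0.05 whichever library was left out (0.47 to 0.54), under median-of-ratios scaling (0.42), without a filter on low genes and with the replicate number as a block (both 0.50).

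Of 7 tested death receptor genes, 2 were higher and 0 lower. Cflar, which encodes the caspase-8 inhibitor c-FLIP, was at 12.3 and 12.8 FPKM in the wt and 16.7 and 21.6 FPKM in the cko libraries, a log2 fold change of 0.56 (SE 0.18). Casp8, which encodes the caspase that cleaves BID, was at 39.3 and 37.2 FPKM in the wt and 47.7 and 53.2 FPKM in the cko libraries (0.39, SE 0.14). Neither had an unadjusted p under 0.05 without wt replicate 1, wt replicate 2 or cko replicate 2, where the log2 fold changes were 0.54, 0.58 and 0.38 for Cflar and 0.43, 0.35 and 0.31 for Casp8. Casp8 also lost that call under median-of-ratios scaling (0.28), with the replicate number as a block and with eBayes without a trend (both 0.39).

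Upstream, 1 of 5 tested p53 and FOXO genes and 1 of 5 tested genes of MCL1 turnover were higher. Cdkn1a, the p53 target that encodes p21, was at 11.0 and 11.4 FPKM in the wt and 17.8 and 28.02 FPKM in the cko libraries (log2 fold change 0.94, SE 0.24). Gsk3b, which encodes a kinase that marks MCL1 protein for degradation, was at 11.6 and 12.03 FPKM in the wt and 20.03 and 17.1 FPKM in the cko libraries (0.61, SE 0.16). Without wt replicate 1 neither had an unadjusted p under 0.05, at log2 fold changes of 0.91 and 0.58. In Gsk3b cko replicate 1 was the higher of the cko libraries, unlike Mcl1, Bcl2l11, Casp6, Birc3 and Cdkn1a.

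**Figure D4:**
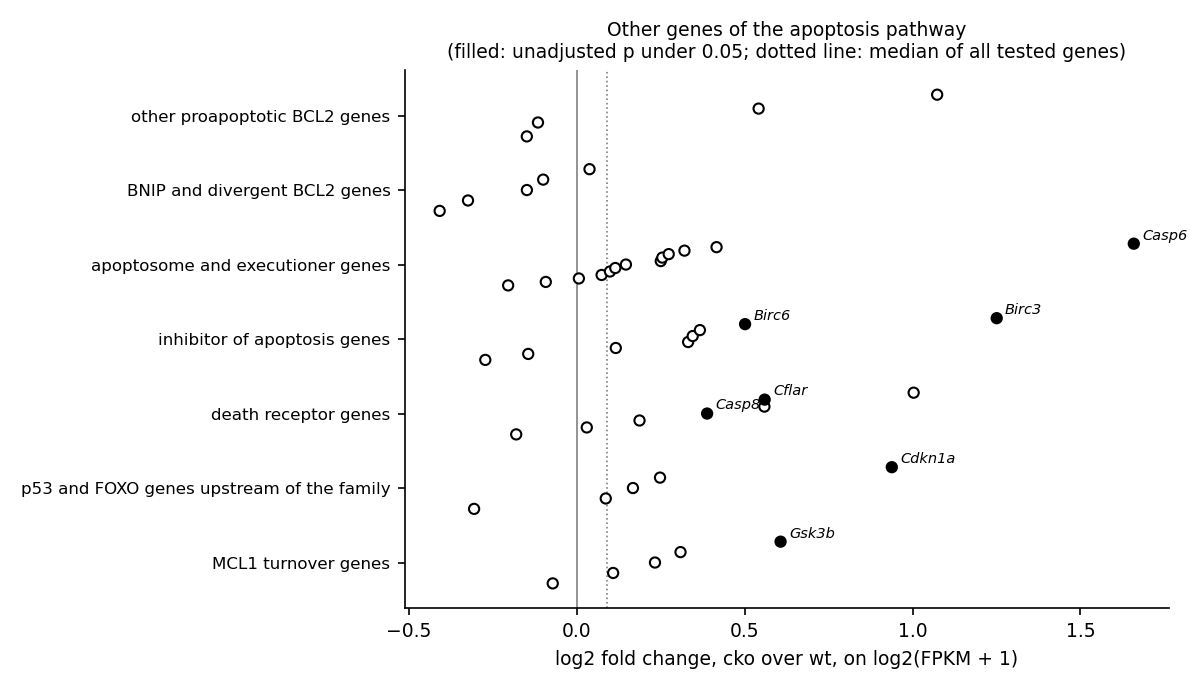
Log2 fold change of cko against wt for the 47 tested and reported genes of the apoptosis lists, by list, with filled points for an unadjusted limma p under 0.05 and a dotted line at the median of all tested genes. The 7 filled points lay above 0, from Casp8 at 0.39 to Casp6 at 1.66.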

How the data were processed

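The authors deposited 1 FPKM value per gene and library for 24706 genes, with no scaling between libraries. Per the labels and the submitters' processing notes, libraries were read on an Illumina HiSeq instrument and the tools named are Bowtie2 2.2.3, TopHat2 2.0.12 and HTSeq 0.6.0. The notes name mm9, whereas 92.61% of the gene positions, those of all 10 members among them, were identical to GENCODE M21 (GRCm38), whose coordinates are used here. Whole reads were recovered from the FPKM steps. Of 3090 to 3920 values of single-exon genes per library, 99.94% to 99.97% were whole within 0.02, and reads were obtained for 98.5% of genes.

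Groups were taken from the labels. FPKM values were compared with limma 3.58.1 in R 4.3.3 (lmFit, eBayes with a trend) on log2(FPKM + 1) without covariates, for genes whose mean reached 1 FPKM, with Benjamini-Hochberg adjustment over all of them. Alternatives were a pseudocount of 0.1, a minimum mean of 5 FPKM, no such minimum, eBayes without a trend, median-of-ratios scaling, voom on the recovered reads (mean of 10 or more), the replicate number as a block and each library left out. Read intervals are exact 95% binomial intervals for the reads of a gene among the counted reads of the library. The members, lists and letters were chosen with earlier results of these data known. All members were named, with other tested BCL2 family genes and, from each further list, genes with an unadjusted p under 0.05. In the apoptosome and executioner list, 1 gene is not reported here and is left out of the list's counts and medians, so that these do not describe the whole list. The fit was also run on simulated reads for 10714 genes, 200 of them changed by a log2 fold change of 2, with one dispersion of 0.04. It called 98.5% of the changed genes at a limma adjusted p under 0.05, with 9 false calls. This checks the fit and is no measure of its power here, where Mcl1, Bcl2l11 and Bak1 had log2 fold changes of 1.10, 1.03 and -0.92.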

Additional observations from a re-analysis of the deposited data

How the results depend on the processing

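Mcl1 kept its direction and an unadjusted p under 0.05 under all 13 alternatives run (log2 fold change 0.76 to 1.43). Over all members, 98 of 115 alternative values kept direction and side of that threshold, 8 lost it, 6 gained it and 3 changed sign. The sign changed for Bcl2a1b (-0.42 without cko replicate 2, up to 1.74 without another library) and Bax (-0.0093 under median-of-ratios scaling, -0.14 without cko replicate 2, up to 0.32 without another library). The log2 fold change of Bcl2l11 ranged from 0.61 to 1.44 and that of Bak1 from -1.38 to -0.46.

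With 1 library left out, 1 to 5 members (3 with all libraries), 1 to 9 genes of the apoptosis lists (7), 845 to 1732 genes at an unadjusted p under 0.05 (1768) and 131 to 462 genes at the looser threshold (247) were called. The prosurvival median was 0.19 to 1.74 and the proapoptotic median -0.17 to 0.06. The difference in the log2 ratio of the sums was 0.65 to 1.58 and the log2 fold change of Pdcd1 -0.84 to -0.54. Bcl2a1b, which reached the minimum mean only through cko replicate 2, is among the members called without cko replicate 1. A minimum mean of 5 FPKM left 5813 genes, of which 1135 had an unadjusted p under 0.05 and 126 passed the looser threshold. With erythroid and hepatocyte marker genes taken out and each library rescaled to one total, the apoptosis lists had 15 genes called. The proapoptotic median was then 0.15 and Pdcd1 had a log2 fold change of -0.49 (unadjusted p no longer under 0.05). That fit differs from the main one mainly through the rescaling, since taking out the markers changed the totals little. Of the genes at an unadjusted p under 0.05, 1234 were higher and 534 lower in the main fit. The counts were 852 and 817 under median-of-ratios scaling and 2338 and 197 with those markers out and the totals rescaled. The higher and lower counts thus depend on the scaling between libraries, and why the FPKM totals differ was not tested.

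The labels number the replicates but do not say that a number pairs libraries, and replicate differences of the groups correlated at -0.16 over 10779 genes. With replicate number added as a block, 258 genes passed the looser threshold, and 1247 of 10779 genes, 3 members and 6 apoptosis genes had an unadjusted p under 0.05. Crossed pairing, chosen after seeing the data, gave 2255 genes, 5 members and 10 apoptosis genes at an unadjusted p under 0.05. At an adjusted p under 0.05 and a log2 fold change of at least 1 in size, the block called 0 genes, the crossed pairing 1 and voom 2 of 14187. Depth limits Bcl2 and Bcl2a1b, and 2 libraries a group limit every comparison.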
